A study of Mus musculus with 27 samples.

Results

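The genes described here are 42 mouse genes of amino acid catabolism and the urea cycle, followed in whole liver over a reproductive cycle. They were taken from a fixed list by symbol and matched to the gene identifiers of the expression tables, 42 of 51826 genes listed there. All 42 were among the 16428 genes with enough counts to be tested. By branch, 7 belong to the urea cycle, 4 to tyrosine, 5 to tryptophan, 4 to histidine, 4 to serine and glyoxylate, 5 to glutamine, glutamate and the transaminases, 3 to proline and hydroxyproline, 1 to lysine and 9 to the branched-chain amino acids.

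Livers came from wild-type BALB/c mice, an inbred laboratory strain, with 1 library of bulk RNA per animal and 27 animals in all. The nulliparous group (NUL) held 4 age-matched animals that had not been pregnant. All other animals were 10 to 12 weeks old when bred, and their litters were evened in size. Lactation day 10 (LAC) had 3 animals. After pups were weaned at day 10 to 14 of lactation, livers were taken 2 days later (ID2, for involution day, 3 animals), 4 days later (ID4, 4 animals), 6 days later (ID6, 6 animals), 8 days later (ID8, 3 animals) and 4 weeks later (REG, for regressed, 4 animals). Values by library are listed below in the order of the animals' numbers: NUL_220, NUL_221, NUL_226 and NUL_227, LAC_200, LAC_213 and LAC_240, ID2_31, ID2_39 and ID2_224, ID4_13, ID4_15, ID4_211 and ID4_215, ID8_14, ID8_98b and ID8_101b, and REG_203, REG_214, REG_234 and REG_239. For ID6, with 6 animals, the lowest, the highest and the median are given.

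The liver breaks down most amino acids that are not built into protein. Their carbon enters central metabolism as pyruvate, acetyl-CoA or intermediates of the citric acid cycle, from which glucose or fat can be made, and their nitrogen is passed on by transaminases to glutamate and aspartate. Ammonia and aspartate then feed the urea cycle, which starts in the mitochondria of periportal hepatocytes, the cells near the portal vein, and ends in the cytosol with urea. Many of these enzymes are known to respond to dietary protein, fasting, glucagon and glucocorticoids, and several follow the time of day.

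Counts totalled 41120650 to 75664540 per library. The values are CPM, the share of a library's scaled total on a common scale, and they compare 1 gene between libraries but not genes of different length. Hepatocyte markers were high in every library (7 markers, summed level 86103 to 226253 CPM), and kidney tubule markers, checked because kidney shares several of these enzymes, summed to at most 0.729 CPM. Pancreas markers (14 genes) summed to 1860 CPM in ID2_31, 132.0 in ID4_15 and 48.3 in ID8_98b, against 6.13 to 21.5 in the other 24 libraries. Numbers under 200 were carried by ID2_31, ID2_39, ID4_13, ID4_15 and the 3 animals of ID8, and numbers of 200 or over by every other animal, a difference the labels do not explain. A score from 10 circadian clock genes, the mean standardised level of 6 genes of the Dbp arm minus that of 4 genes of the Arntl arm, lay between 1.40 and 5.04 in ID2. The score ran from -2.55 to -0.20 in NUL, -1.36 to 0.86 in LAC, -0.18 to 1.79 in ID4, -2.42 to -0.82 in ID6, 0.44 to 2.03 in ID8 and -1.11 to 2.02 in REG. The scores did not overlap between ID2 and NUL, ID2 and LAC, ID4 and NUL, ID8 and NUL, ID6 and ID4, or ID8 and ID6, so stage and clock score cannot be told apart in these comparisons.

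Transcripts of amino acid catabolism were highest 2 days after weaning. The mean CPM was highest in ID2 for 33 of the 42 genes, and it was lowest in ID6 for 17 and in LAC for 16. Such counts were not made over all genes tested. Added up per length as TPM, the deposited length-scaled value, the 42 genes made up 1.96% of all transcripts in ID2, against 1.42% in NUL and 1.31% in LAC. Their summed TPM was 14173 ± 1645 in NUL (SD, n = 4), 13085 ± 662 in LAC (n = 3), 19647 ± 1156 in ID2 (n = 3), 14986 ± 954 in ID4 (n = 4), 13844 ± 637 in ID6 (n = 6), 16224 ± 1672 in ID8 (n = 3) and 15462 ± 951 in REG (n = 4). The ID2 libraries, at 18389 to 20663 TPM, lay above every library of the other stages, the highest of which was 17614 TPM in ID8. In bulk RNA, fewer cells of a type and less RNA per cell cannot be told apart.

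**Figure D1:**
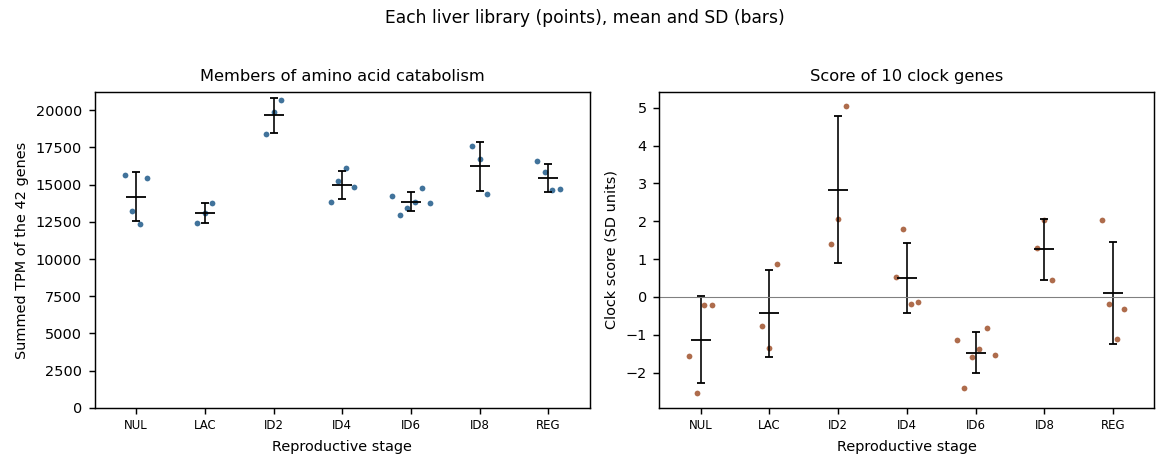
Left, summed TPM of the 42 genes in each library by stage, with the mean and SD as bars; the 3 ID2 libraries lie above all others, at 18389 to 20663 TPM. Right, the clock score of the same libraries in SD units, where ID2 spans 1.40 to 5.04 and no NUL or ID6 library exceeds 0.

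Calls were made with edgeR's quasi-likelihood test over all genes, at a Benjamini-Hochberg adjusted p under 0.05. Across the 7 stages 35 of the 42 genes differed in the joint test, where 27% of all genes tested did. In LAC against NUL 2 were higher and 5 lower, where 11.2% of all genes were called, 5.19% as higher and 6% as lower. In ID2 against NUL 24 were higher and none lower, where 3.24% of all genes were called, 2.32% as higher. Their median log2 fold change was 0.44, against -0.02 over all genes, and 41 of 42 were positive. In ID2 against LAC 24 were higher and none lower, with a median of 0.44 against 0.02 over all genes, where 16.1% of all genes were called, 8.48% as higher. Of the genes higher in ID2, 18 were called against both NUL and LAC, comparisons that share the ID2 libraries.

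Fewer members were called in the later stages against NUL. In ID4 against ID2 4 genes were lower and none higher, where 1.49% of all genes were called, 0.84% as lower. In ID4 against NUL 7 were still higher, where 4.25% of all genes were called, 2.64% as higher. In ID6 against ID4 18 were lower and none higher, where 8.53% of all genes were called, 4.64% as lower, and the median log2 fold change was -0.27 against 0.01 over all genes. With limma on log2(TPM + 1) this comparison had 11 lower and 1 higher (Haao), and the median was -0.13 against 0.07. In ID6 against NUL only Slc25a15 and Kmo were called, both lower, where 1.08% of all genes were called, 0.682% as lower. In ID8 against ID6 16 were higher and none lower, where 4.12% of all genes were called, 2.37% as higher, with a median of 0.31 against 0.00. With limma on log2(TPM + 1) it had 8 higher, with a median of 0.18 against -0.07. In ID8 against NUL Got1 alone was called, higher, where 0.499% of all genes were called, 0.359% as higher. The members' median log2 fold change was 0.23 in ID8 against NUL and 0.22 in ID4 against NUL, against 0.00 and -0.02 over all genes. Of the 42, 40 and 37 were positive. In each of these comparisons 19 members had an unadjusted edgeR p under 0.05, where 2105 and 3057 of 16428 genes had one. At 4 weeks after weaning no member was called against NUL (0.0852% of all genes) or against ID8 (0.0487%). The members' median in REG against NUL was 0.13 against 0.00 over all genes, and 33 of 42 were positive. An unadjusted edgeR p under 0.05 was found for 5 members in REG against NUL, where 1178 of 16428 genes had one, and for 7 in REG against ID8, where 1481 had one. DESeq2 called 1 and 0 members in these comparisons, and the edgeR fit with the clock score 1 and 0.

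**Figure D2:**
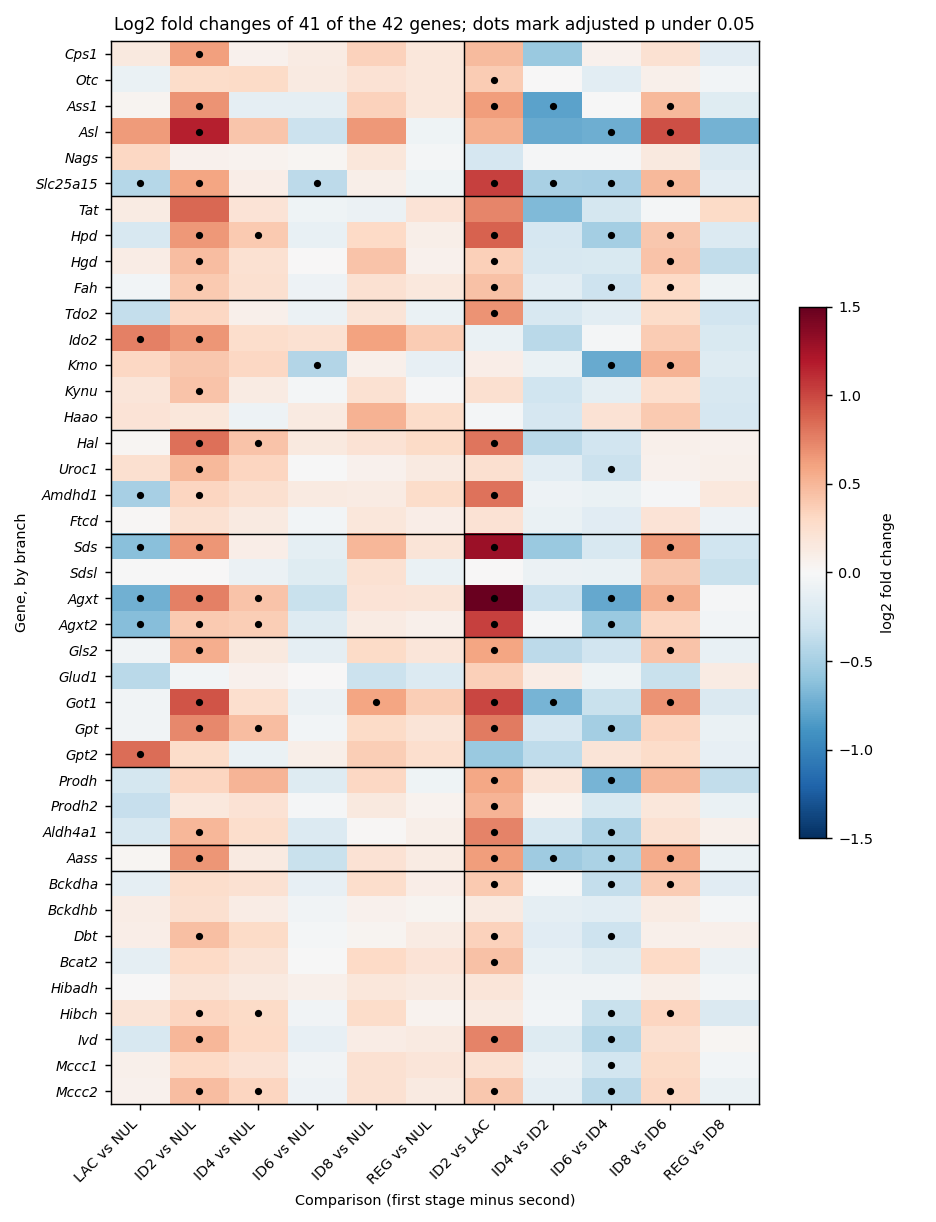
Log2 fold changes of 41 of the 42 genes (rows, ordered by branch and separated by lines) in the 11 comparisons (columns, first stage minus second); red is higher and blue lower in the first stage, and dots mark an adjusted p under 0.05. Dots gather in the columns ID2 against NUL (24), ID2 against LAC (24), ID6 against ID4 (18) and ID8 against ID6 (15), each in 1 direction.

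The counts of calls depended on what else was in the fit. With the clock score as a term in the edgeR fit, ID2 against NUL called 0 of the 42 genes, while their median log2 fold change was 0.36 in place of 0.44. All genes called in that comparison went from 532 to 11 in the same fit. ID2 against LAC kept 15 calls with the score, ID6 against ID4 kept 12 and ID8 against ID6 had 6 higher and 1 lower (Glud1). Over all genes the calls in these comparisons went from 2648 to 1294, from 1401 to 1005 and from 677 to 378. The scores did not overlap between these groups, so a call kept with the score does not tell stage from clock score there. With the range of the animal number as a term, ID2 against NUL called 11, ID2 against LAC 20, ID6 against ID4 14 and ID8 against ID6 0. The members' median log2 fold change with this term was 0.48 in ID2 against NUL (0.44 without it) and 0.34 in ID8 against ID6 (0.31 without it), while the calls over all genes went from 532 to 108 and from 677 to 6. All ID8 animals had numbers under 200 and all ID6 animals 200 or over, so stage and number cannot be told apart there except through ID2 and ID4. Leaving out ID8_101b left 0 calls in ID8 against ID6. Without ID2_39, ID2 against NUL called 11, and without ID2_31, the library with most pancreas RNA, or without NUL_226 it called 14. In ID4 against NUL no call was left without ID4_211, NUL_221 or NUL_226, and 13 were made without NUL_220. Without the 3 libraries with most pancreas RNA, ID4 against ID2 called 1 and ID8 against ID6 called 9.

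**Figure D3:**
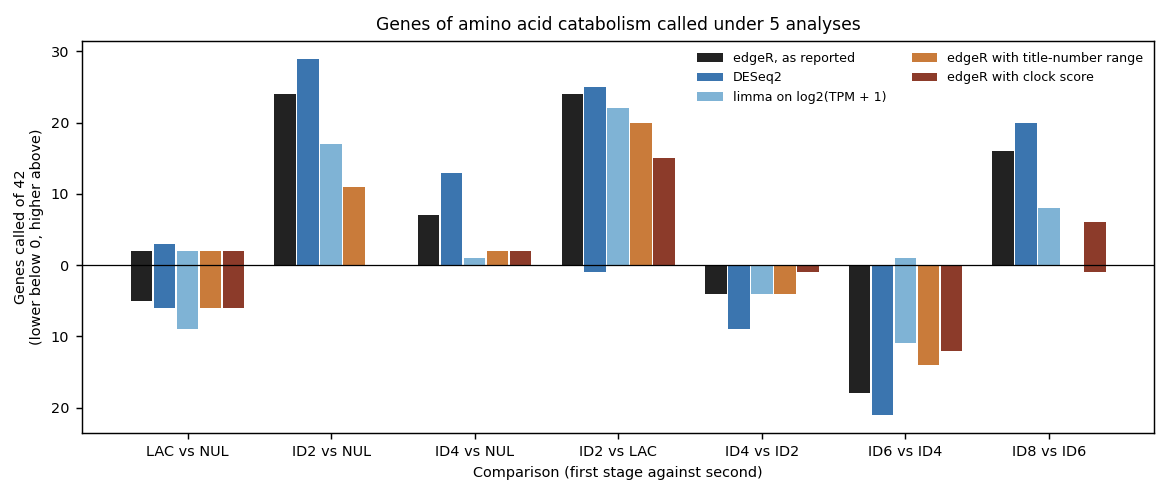
Number of the 42 genes called higher (above 0) and lower (below 0) in 7 comparisons under 5 analyses, shown as bars. ID2 against NUL has 24 calls as reported, 11 with the animal number range and 0 with the clock score, and ID8 against ID6 has 16, 0 and 7.

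Of the 7 urea cycle genes, 4 were higher in ID2 than in NUL, where 2.32% of all genes were called higher. Summed per length, the 7 genes reached 7219 ± 783 TPM in ID2 (SD, n = 3), against 4899 ± 798 in NUL (n = 4) and 5109 ± 358 in LAC (n = 3). In TPM, Ass1 was the most abundant of all 42 genes in NUL (1998 ± 396 TPM), with Cps1 (919.8 ± 214.3) in place 4. Cps1 (ENSMUSG00000025991, chr1:67123026-67231259, plus strand, on GRCm38) encodes carbamoyl phosphate synthetase, which joins ammonia and bicarbonate in the first step of the cycle. Cps1 measured 4672, 3172, 3288 and 4945 CPM in NUL, 4008, 4489 and 4813 in LAC, and 5907, 6846 and 5729.7 at ID2. Cps1 then measured 3659, 4418, 5178 and 3510.2 CPM at ID4, 4023 to 4657 (median 4449) at ID6, 6304, 3623 and 5408 at ID8, and 4864, 4949.6, 4247 and 4049 in REG. All ID2 values of Cps1 were above all NUL, LAC, ID4, ID6 and REG values, while the ID8 values overlapped those of every other stage. The log2 fold change of Cps1 in ID2 against NUL was 0.62 (SE 0.16, edgeR adjusted p = 0.0322). It was not called in 5 of 7 fits without 1 library (largest edgeR adjusted p = 0.178, without ID2_39). Against LAC it was 0.47 (SE 0.17, edgeR adjusted p = 0.0626), which did not pass.

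Ass1 encodes argininosuccinate synthetase, which brings in the second nitrogen from aspartate, and Asl the lyase that splits argininosuccinate into arginine and fumarate. Ass1 measured 2925, 2419, 1732 and 2354 CPM in NUL, 2240.0, 2449 and 2604 in LAC, and 4094, 3729 and 3436 at ID2. Ass1 then measured 1997, 2129, 2207 and 2262 CPM at ID4, 1823 to 2427 (median 2192) at ID6, 3123, 2496 and 3404 at ID8, and 2834, 2635, 2272 and 2899 in REG. Every ID2 library exceeded every other library for Ass1, and the ID4 and ID6 values lay within the NUL range. On the log2 scale Ass1 rose in ID2 by 0.67 (SE 0.14, edgeR adjusted p = 0.00505) against NUL and by 0.63 (SE 0.15, edgeR adjusted p = 0.00444) against LAC, and fell from ID2 to ID4 with -0.80 (SE 0.14, edgeR adjusted p = 0.00111). These 3 calls held in every fit without 1 library, and the ID4 call also held with the clock score. From ID6 to ID8 Ass1 rose by 0.49 (SE 0.12, edgeR adjusted p = 0.0242), a call lost in 4 of 9 fits without 1 library (largest edgeR adjusted p = 0.171, without ID8_101b). RSEM divided shared reads for Ass1 in 26 of 27 libraries, so its counts depend on that division. Asl measured 403, 417, 225 and 336 CPM in NUL, 485, 576 and 558 in LAC, and 677, 1052 and 604 at ID2. Asl then measured 389, 357, 516 and 576 CPM at ID4, 229.9 to 317 (median 274) at ID6, 345, 585 and 693 at ID8, and 413, 313, 278 and 319.5 in REG. Asl was highest in ID2_39, and among the libraries of other stages ID8_101b alone reached the ID2 range. Its LAC values lay above all NUL values, and its ID6 values were the lowest of the involution days. Asl had the largest log2 fold change of the 42 genes in ID2 against NUL, 1.17 (SE 0.23, edgeR adjusted p = 0.0057), and it missed the threshold once ID2_39 was left out (edgeR adjusted p = 0.0684). Asl fell from ID4 to ID6 with -0.73 (SE 0.19, edgeR adjusted p = 0.0213) and rose to ID8 with 0.96 (SE 0.21, edgeR adjusted p = 0.0117), calls lost in 3 of 10 fits without 1 library (largest edgeR adjusted p = 0.0889, without ID4_215) and in 2 of 9 fits without 1 library (largest edgeR adjusted p = 0.122, without ID8_101b). In LAC against NUL its value was 0.64 (SE 0.23, edgeR adjusted p = 0.0753), short of a call.

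Slc25a15 encodes the carrier that brings ornithine back into the mitochondrion and takes citrulline out. Slc25a15 measured 395, 389.5, 303 and 409 CPM in NUL, 289, 287 and 258 in LAC, and 507, 642 and 543 at ID2. Slc25a15 then measured 375, 396, 427 and 411 CPM at ID4, 262 to 326 (median 281) at ID6, 334, 386 and 476 at ID8, and 382, 391, 319 and 338 in REG. Slc25a15 was below all NUL values in LAC, above all other libraries at ID2, and again low at ID6, where its range met the LAC range. It was called in 7 of the 11 comparisons, the most of any member. Slc25a15 fell in LAC against NUL with -0.43 (SE 0.12, edgeR adjusted p = 0.0159), a call lost in 1 of 7 fits without 1 library (largest edgeR adjusted p = 0.0842, without LAC_240). In ID2 it rose by 1.02 (SE 0.13, edgeR adjusted p = 6.46e-06) against LAC and by 0.59 (SE 0.12, edgeR adjusted p = 0.00378) against NUL, of which the first held in every fit run and the second was lost in 1 of 7 fits without 1 library (largest edgeR adjusted p = 0.0537, without ID2_39). It fell from ID4 to ID6 with -0.50 (SE 0.10, edgeR adjusted p = 0.00205), in every fit run. Of the other urea cycle genes, Otc, which makes citrulline, ranged over 425 to 654 CPM and was called only in ID2 against LAC (log2 fold change 0.38), lost in 2 of 6 fits without 1 library (largest edgeR adjusted p = 0.0896, without LAC_240). Nags, which makes the activator of Cps1, ranged over 69.2 to 114 CPM and was called in no comparison; its LAC values, 103, 114 and 112 CPM, lay above the NUL values of 96.2, 93.9, 69.2 and 94.3 CPM (log2 fold change 0.31 (SE 0.13, edgeR adjusted p = 0.119)).

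**Figure D4:**
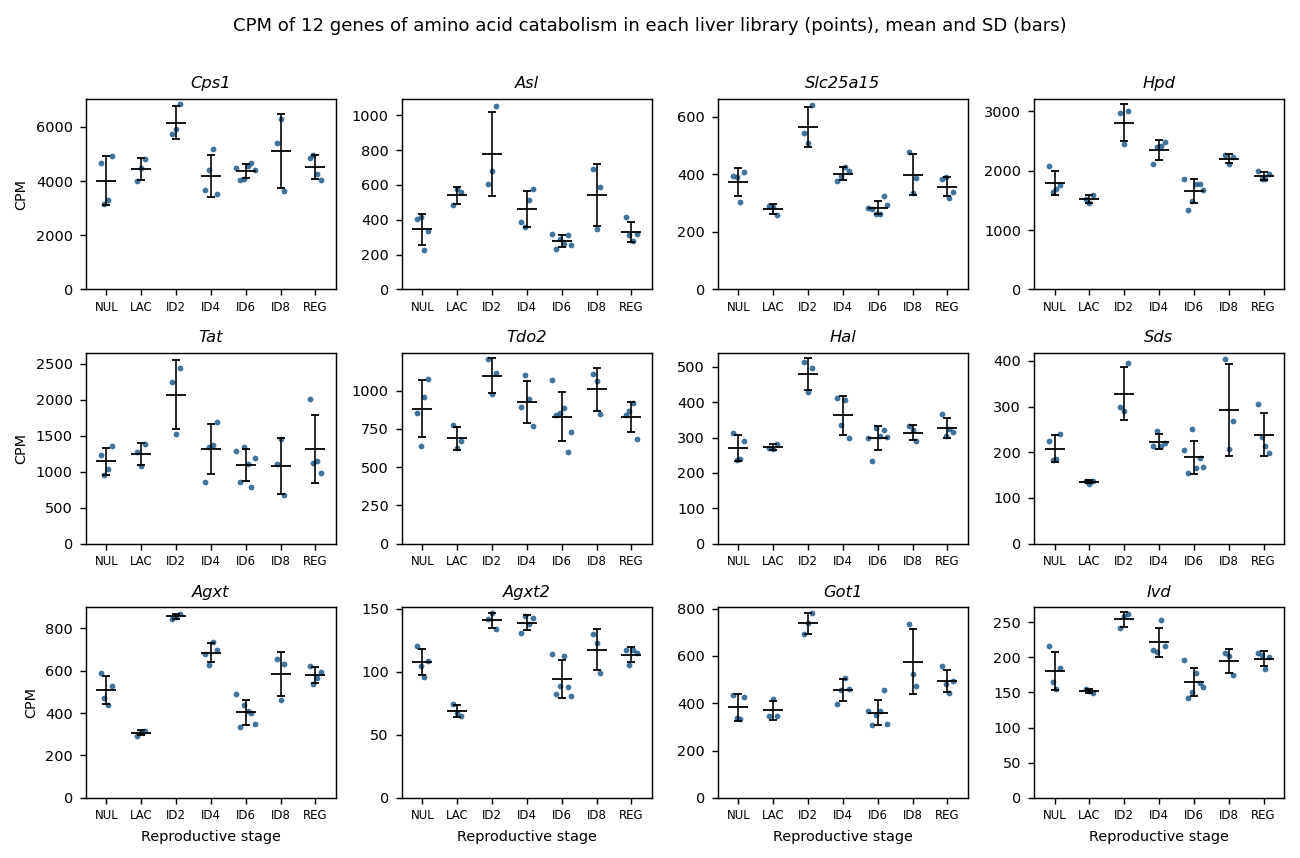
CPM of 12 of the genes in each library (points) by stage, with the mean and SD as bars; every vertical axis starts at 0. Agxt, Agxt2, Sds and Slc25a15 are lowest or near lowest in LAC and highest at ID2, while Tat spreads widely within ID2, ID4, ID8 and REG.

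Of the 4 tyrosine genes, Hpd, Hgd and Fah were higher in ID2 than in both NUL and LAC, where 2.32% and 8.48% of all genes were called higher. Tat, tyrosine aminotransferase, catalyses the first step and is a textbook target of glucocorticoids. Tat measured 1226, 958, 1032 and 1363 CPM in NUL, 1273, 1084 and 1390.3 in LAC, and 1527, 2446 and 2242 at ID2. Tat then measured 856, 1340.0, 1365 and 1697 CPM at ID4, 793 to 1338 (median 1150.2) at ID6, 1452, 672 and 1102 at ID8, and 2012, 1122, 1148 and 985 in REG. The 3 ID2 values of Tat lay above all NUL and LAC values, but 1 of 4 ID4 and 1 of 4 REG values exceeded the lowest ID2 value. Tat was called in no comparison; its log2 fold change in ID2 against NUL was 0.86 (SE 0.27, edgeR adjusted p = 0.0803), with the largest SE of the 42 genes in that comparison. Hpd, the dioxygenase that makes homogentisate, was second in abundance in NUL at 1937 ± 189 TPM. Hpd measured 2079, 1639.7, 1686 and 1766 CPM in NUL, 1518, 1458 and 1594 in LAC, and 2457, 3007 and 2968 at ID2. Hpd then measured 2107, 2389.8, 2419 and 2489.6 CPM at ID4, 1332 to 1859 (median 1729) at ID6, 2111, 2223 and 2259 at ID8, and 1986, 1853, 1861 and 1947 in REG. Hpd was below every NUL value in LAC, above every NUL value at ID2, ID4 and ID8, and back within or below the NUL range at ID6. Hpd rose in ID2 by 0.88 (SE 0.12, edgeR adjusted p = 1.42e-05) against LAC and by 0.65 (SE 0.11, edgeR adjusted p = 0.000766) against NUL, and fell from ID4 to ID6 with -0.51 (SE 0.09, edgeR adjusted p = 0.000986). These calls held without any 1 library, and those against LAC and from ID4 to ID6 held in every fit run. It was also called in ID4 against NUL (0.39) and in ID8 against ID6 (0.41), calls lost in 6 of 8 fits without 1 library (largest edgeR adjusted p = 0.0793, without NUL_221) and in 2 of 9 fits without 1 library (largest edgeR adjusted p = 0.0973, without ID8_101b).

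Hgd opens the ring of homogentisate, and Fah, fumarylacetoacetase, ends the pathway with fumarate and acetoacetate. Hgd measured 635, 533, 474 and 598 CPM in NUL, 589.7, 657 and 573 in LAC, and 769, 816 and 739 at ID2. Hgd then measured 576, 635, 733 and 680.2 CPM at ID4, 502 to 621 (median 561) at ID6, 750.3, 701 and 815 at ID8, and 638, 551, 559.8 and 586 in REG. Hgd was higher in every ID2 and ID8 library than in any NUL library. Its log2 fold change was 0.47 (SE 0.10, edgeR adjusted p = 0.00988) in ID2 against NUL and 0.43 (SE 0.09, edgeR adjusted p = 0.0103) in ID8 against ID6, and these calls were lost without ID2_39 (edgeR adjusted p = 0.0747) and without ID8_101b (0.0919). Its call in ID2 against LAC was lost in 4 of 6 fits without 1 library (largest edgeR adjusted p = 0.105, without ID2_39). Fah measured 557, 491, 450.1 and 459 CPM in NUL, 470.5, 486 and 470.0 in LAC, and 645, 663 and 622 at ID2. Fah then measured 575, 546, 576 and 613 CPM at ID4, 389.8 to 524 (median 479.8) at ID6, 560.2, 557 and 609 at ID8, and 579.8, 531, 513 and 568 in REG. Fah lay above all NUL and LAC values at ID2 and reached its lowest values at ID6. Fah rose in ID2 against LAC with 0.44 (SE 0.10, edgeR adjusted p = 0.00483), in every fit without 1 library, and by 0.39 (SE 0.10, edgeR adjusted p = 0.0191) against NUL, lost in 4 of 7 fits without 1 library (largest edgeR adjusted p = 0.107, without ID2_39). From ID4 to ID6 it fell with -0.31 (SE 0.08, edgeR adjusted p = 0.0164), a call lost without ID4_215 (edgeR adjusted p = 0.0603).

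Of the 5 tryptophan genes, 1 was higher in LAC against NUL and 2 were higher in ID2 against NUL, where 5.19% and 2.32% of all genes were called higher. Tdo2, tryptophan dioxygenase, is the main hepatic enzyme that opens the tryptophan ring to kynurenine, and Ido2 is a related dioxygenase. Tdo2 measured 856, 641, 961 and 1078 CPM in NUL, 774, 629 and 669 in LAC, and 978, 1114 and 1208 at ID2. Tdo2 then measured 894, 1102, 949 and 768 CPM at ID4, 597 to 1072 (median 848) at ID6, 1063, 849.9 and 1112 at ID8, and 842, 867, 918 and 686 in REG. Tdo2 values were widely spread in NUL and ID6, and the ID2 range lay above the LAC and REG ranges. Tdo2 was called once, in ID2 against LAC with 0.67 (SE 0.18, edgeR adjusted p = 0.0107), and lost that call in 2 of 6 fits without 1 library (largest edgeR adjusted p = 0.0608, without LAC_213); with the clock score its log2 fold change was 0.47. Ido2 measured 43.3, 34.7, 29.2 and 33.9 CPM in NUL, 60.3, 59.6 and 59.2 in LAC, and 60.0, 59.7 and 47.8 at ID2. Ido2 then measured 45.2, 35.2, 42.3 and 46.6 CPM at ID4, 34.5 to 53.0 (median 39.8) at ID6, 63.2, 48.6 and 48.8 at ID8, and 44.4, 35.0, 47.5 and 56.6 in REG. Ido2 was above every NUL value in LAC and at ID2, and it was the least abundant of the 42 genes in NUL at 17.5 ± 2.65 TPM. Ido2 rose in LAC against NUL with 0.76 (SE 0.16, edgeR adjusted p = 0.00222), a call that held in every fit run. Its rise in ID2 against NUL was 0.66 (SE 0.16, edgeR adjusted p = 0.0176) and was lost in 3 of 7 fits without 1 library (largest edgeR adjusted p = 0.106, without ID2_39).

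Kmo encodes the hydroxylase that adds oxygen to kynurenine, Kynu cleaves kynurenines, and Haao acts next towards quinolinate and NAD. Kmo measured 180.3, 167, 122 and 159 CPM in NUL, 195, 216.5 and 174 in LAC, and 205, 210.9 and 208.95 at ID2. Kmo then measured 214.5, 154, 199 and 213.8 CPM at ID4, 98.1 to 132 (median 119) at ID6, 154, 164 and 179 at ID8, and 145, 129, 159 and 147 in REG. Kmo was low at ID6, where every library lay below every LAC, ID2, ID4 and ID8 library. It fell from ID4 to ID6 with -0.75 (SE 0.10, edgeR adjusted p = 9.92e-05), in every fit run, and rose to ID8 with 0.52 (SE 0.11, edgeR adjusted p = 0.0102), a call that was kept with the clock score and lost without ID8_101b (edgeR adjusted p = 0.0859). Against NUL it was lower at ID6 with -0.44 (SE 0.10, edgeR adjusted p = 0.0261), in overlapping ranges and lost in 5 of 10 fits without 1 library (largest edgeR adjusted p = 0.115, without NUL_220). Kynu ranged over 81.3 to 159 CPM and was called in ID2 against NUL only (0.43), a call lost in 2 of 7 fits without 1 library (largest edgeR adjusted p = 0.178, without ID2_39). Haao ranged over 322 to 619 CPM and was called in none of the 11 comparisons, while it passed the joint test over stages.

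In the histidine branch Hal, Uroc1 and Amdhd1 were higher in ID2 than in NUL, and Hal and Amdhd1 also than in LAC. Of all genes, 2.32% were called higher in ID2 against NUL and 8.48% in ID2 against LAC. Hal, histidine ammonia lyase, releases ammonia from histidine and is one of the periportal genes. Hal measured 312, 237, 240.2 and 289 CPM in NUL, 271, 268 and 283 in LAC, and 429, 497 and 513 at ID2. Hal then measured 412, 335, 406 and 298 CPM at ID4, 233 to 327 (median 303) at ID6, 322, 289 and 332 at ID8, and 368, 304, 325 and 316 in REG. Every ID2 value of Hal was above every other library, and ID4 spread from the NUL range upwards. Hal rose by 0.83 (SE 0.12, edgeR adjusted p = 0.000252) against NUL and by 0.81 (SE 0.13, edgeR adjusted p = 0.000131) against LAC, and both calls held without any 1 library. Hal was called in ID4 against NUL too, 0.43 (SE 0.11, edgeR adjusted p = 0.0243), in ranges that overlapped, and lost that call in 4 of 8 fits without 1 library (largest edgeR adjusted p = 0.101, without ID4_13). Amdhd1 encodes imidazolonepropionase, the third step. Amdhd1 measured 283, 259, 251 and 269 CPM in NUL, 188, 193 and 184 in LAC, and 341, 301 and 353 at ID2. Amdhd1 then measured 319, 303, 312 and 325 CPM at ID4, 279 to 308 (median 294) at ID6, 256, 304 and 307 at ID8, and 307, 306, 340.2 and 336 in REG. Amdhd1 in LAC was below every library of every other stage. It fell in LAC against NUL with -0.50 (SE 0.08, edgeR adjusted p = 0.000152) and rose in ID2 against LAC with 0.81 (SE 0.08, edgeR adjusted p = 8.73e-07), and both held in every fit run. The fit with the clock score is among these, though the scores of ID2 and LAC did not overlap. Against NUL it was higher at ID2 by 0.32 (SE 0.08, edgeR adjusted p = 0.0203), lost in 4 of 7 fits without 1 library (largest edgeR adjusted p = 0.112, without ID2_224). Uroc1, urocanase, ranged over 361 to 597 CPM and was called higher in ID2 against NUL (0.48) and lower in ID6 against ID4 (-0.32). These calls of Uroc1 were lost in 3 of 7 fits without 1 library (largest edgeR adjusted p = 0.0684, without ID2_39) and in 5 of 10 fits without 1 library (largest edgeR adjusted p = 0.163, without ID4_211). Ftcd, which passes the one-carbon unit of histidine to folate, ranged over 314 to 439.7 CPM and was called by edgeR in no comparison. With limma on log2(TPM + 1) it was called higher in ID2 against LAC (0.24, limma adjusted p = 0.0307).

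Of the 4 serine and glyoxylate genes, 3 fell in LAC against NUL and rose in ID2 against LAC, where 6% of all genes were called lower and 8.48% higher. Agxt encodes the peroxisomal enzyme that turns glyoxylate into glycine with alanine as the donor, and its loss is known to cause oxalate stones. Agxt2 is a mitochondrial aminotransferase that also acts on glyoxylate, and Sds, serine dehydratase, makes pyruvate and ammonia from serine. Agxt measured 589.6, 472, 439 and 527 CPM in NUL, 294, 313 and 314 in LAC, and 854, 870.3 and 846 at ID2. Agxt then measured 679, 628, 734 and 698 CPM at ID4, 335 to 489 (median 406) at ID6, 464, 633 and 656 at ID8, and 620.3, 537, 564 and 596 in REG. The LAC values of Agxt were below and the ID2 values above every library of the other stages, with ID4 next in order and ID6 next to LAC. Agxt fell in LAC against NUL with -0.72 (SE 0.12, edgeR adjusted p = 0.000303) and rose in ID2 against LAC with 1.48 (SE 0.13, edgeR adjusted p = 1.16e-07), the largest log2 fold change of any member in any comparison. Both held in every fit run. In ID2 against NUL it rose by 0.76 (SE 0.12, edgeR adjusted p = 0.00053), and with the clock score the log2 fold change was 0.75 with an edgeR adjusted p of 0.104. From ID4 to ID6 Agxt fell with -0.76 (SE 0.10, edgeR adjusted p = 7.13e-05), in every fit run.

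Agxt2 measured 121, 105, 95.6 and 109 CPM in NUL, 74.6, 67.7 and 65.3 in LAC, and 146, 134 and 142 at ID2. Agxt2 then measured 131, 144, 138 and 143 CPM at ID4, 81.1 to 115 (median 88.3) at ID6, 123, 99.2 and 130.2 at ID8, and 117, 105, 117 and 115 in REG. Agxt2 in LAC was below every other library, and its ID2 and ID4 values overlapped each other and lay above those of NUL, LAC, ID6, ID8 and REG. Agxt2 fell in LAC against NUL with -0.64 (SE 0.11, edgeR adjusted p = 0.000443), rose in ID2 against LAC with 1.03 (SE 0.12, edgeR adjusted p = 2.93e-06) and fell from ID4 to ID6 with -0.56 (SE 0.09, edgeR adjusted p = 0.000546), each in every fit run. Its call in ID2 against NUL, 0.39 (SE 0.11, edgeR adjusted p = 0.0466), was lost in 6 of 7 fits without 1 library (largest edgeR adjusted p = 0.161, without ID2_31). Sds measured 223.6, 182, 186 and 240.4 CPM in NUL, 136, 131 and 138 in LAC, and 290.2, 395 and 299 at ID2. Sds then measured 213.96, 247, 213.2 and 219 CPM at ID4, 155 to 250.5 (median 178) at ID6, 206, 269 and 403 at ID8, and 306, 233, 213.8 and 199 in REG. Sds was lowest in the 3 LAC libraries, which lay within a few CPM of each other, and it ranged widely at ID8, where ID8_101b was highest of all libraries. Sds rose in ID2 against LAC with 1.28 (SE 0.20, edgeR adjusted p = 0.000129), in every fit run, and with the clock score this was 0.93. It fell in LAC against NUL with -0.62 (SE 0.18, edgeR adjusted p = 0.0285), lost in 5 of 7 fits without 1 library (largest edgeR adjusted p = 0.102, without LAC_213), and it rose in ID2 against NUL with 0.66 (SE 0.18, edgeR adjusted p = 0.044), lost in 6 of 7 fits without 1 library (largest edgeR adjusted p = 0.265, without ID2_39). Reads of Sds were divided with other genes in 26 of 27 libraries. Its paralogue Sdsl ranged over 12.9 to 23.1 CPM and was called nowhere.

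Slc25a15, Amdhd1, Sds, Agxt and Agxt2 were the 5 members called lower in LAC against NUL and higher in ID2 against LAC, comparisons that share the LAC libraries. In ID6 against ID4 they parted: Slc25a15, Agxt and Agxt2 were called lower, and Amdhd1 and Sds were not called. The promoter windows of 4 of the genes are shown here because of the calls by which they were picked. Each window holds 300 bases, from 250 before to 50 after an annotated start, from RefSeq on GRCm38.p6. Such a window was matched for 32 of the 42 genes and Cps1, Asl, Sds, Sdsl, Gls2, Gpt, Kynu, Ido2 and Dbt were among those without one. Sequences run 5′ to 3′ on the gene's strand, and capitals mark a motif match.
Agxt, chr1:93134990-93135289, plus strand: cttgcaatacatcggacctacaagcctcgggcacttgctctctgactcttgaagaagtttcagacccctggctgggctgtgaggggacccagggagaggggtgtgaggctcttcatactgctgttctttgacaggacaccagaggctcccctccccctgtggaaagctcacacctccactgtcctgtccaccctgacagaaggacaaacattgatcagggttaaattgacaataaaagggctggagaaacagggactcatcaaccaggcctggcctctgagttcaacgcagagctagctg
Agxt2, chr15:10358283-10358582, plus strand: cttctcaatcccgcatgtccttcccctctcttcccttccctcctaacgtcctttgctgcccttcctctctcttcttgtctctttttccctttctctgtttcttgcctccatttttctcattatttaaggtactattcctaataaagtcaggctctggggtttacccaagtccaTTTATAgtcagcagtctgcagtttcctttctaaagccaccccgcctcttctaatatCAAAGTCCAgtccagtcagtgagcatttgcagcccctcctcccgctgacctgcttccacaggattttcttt
Amdhd1, chr10:93539984-93540283, minus strand: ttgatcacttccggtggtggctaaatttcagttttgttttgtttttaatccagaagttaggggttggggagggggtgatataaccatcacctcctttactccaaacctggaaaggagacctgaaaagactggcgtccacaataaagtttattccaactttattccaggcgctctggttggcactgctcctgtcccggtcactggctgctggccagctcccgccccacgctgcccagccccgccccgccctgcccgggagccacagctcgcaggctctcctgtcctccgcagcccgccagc
Slc25a15, chr8:22398228-22398527, minus strand: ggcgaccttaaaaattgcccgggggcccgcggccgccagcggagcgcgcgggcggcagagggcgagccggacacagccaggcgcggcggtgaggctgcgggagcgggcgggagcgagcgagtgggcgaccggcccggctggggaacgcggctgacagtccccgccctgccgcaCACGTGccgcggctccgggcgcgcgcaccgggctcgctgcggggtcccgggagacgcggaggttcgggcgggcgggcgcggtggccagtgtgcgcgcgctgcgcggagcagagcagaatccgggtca

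Motifs were searched by exact letters on both strands. In the Agxt2 window the capitals mark CAAAGTCCA, a binding sequence of HNF4, the first base of which lies 21 bases before the start, and TATAAA on the opposite strand. CAAAGTCCA was in 0.475% of all 32851 windows and TATAAA in 13.6%, and the 2 motifs share no base there. In the Slc25a15 window the capitals mark CACGTG, the E-box, 77 bases before the start, which 7.15% of all windows hold. Among the other members with a window, CACGTG was found in Ass1 and Mccc2 and TATAAA in Tdo2, Ftcd, Hal and Hgd. None of the members' windows held TGACGTCA (the cyclic AMP response element, 1.79% of all windows), TTGCGCAA (C/EBP, 0.183%), TTATGTAA (the D-box, 0.938%), the palindromic glucocorticoid response element (0.00913%) or the HNF1 motif (0.00913%). RefSeq gives Agxt2 and Slc25a15 another start each, whose windows are not printed. From that start of Agxt2 the same HNF4 match lies 67 bases before, and that window of Slc25a15 held none of the motifs searched. A match or its lack is a description of these letters in this window.

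Glutamine, glutamate and the transaminases linked the branches. Got1, cytosolic aspartate aminotransferase, moves nitrogen between glutamate and aspartate. Got1 measured 435, 337, 332 and 426 CPM in NUL, 348, 416 and 345 in LAC, and 740.1, 781 and 694 at ID2. Got1 then measured 396, 455, 509 and 459 CPM at ID4, 308 to 456 (median 358) at ID6, 522, 472 and 733 at ID8, and 559, 480.5, 445 and 495 in REG. Got1 at ID2 was above every library of the other stages except ID8_101b. Got1 rose by 0.95 (SE 0.14, edgeR adjusted p = 0.000252) against NUL and by 0.997 (SE 0.15, edgeR adjusted p = 7.09e-05) against LAC and fell from ID2 to ID4 with -0.70 (SE 0.14, edgeR adjusted p = 0.00617), and all 3 calls held without any 1 library. It rose again from ID6 to ID8 with 0.68 (SE 0.13, edgeR adjusted p = 0.00376), lost without ID8_101b (edgeR adjusted p = 0.081). Gls2, the liver glutaminase, releases ammonia from glutamine in periportal cells. Gls2 measured 554, 503, 355 and 459 CPM in NUL, 439.9, 474 and 439 in LAC, and 746, 684 and 613 at ID2. Gls2 then measured 509, 495, 575 and 498 CPM at ID4, 378 to 484 (median 433) at ID6, 576, 565 and 576 at ID8, and 566, 509, 492 and 558 in REG. Every ID2 value of Gls2 exceeded every library of the other stages, and all ID8 values exceeded all ID6 values. Its log2 fold change was 0.59 (SE 0.12, edgeR adjusted p = 0.00146) against LAC, held without any 1 library and with the clock score, and 0.54 (SE 0.11, edgeR adjusted p = 0.00618) against NUL, where it missed the threshold without ID2_31 (edgeR adjusted p = 0.0503).

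Gpt, alanine aminotransferase of the cytosol, turns alanine into pyruvate, and Gpt2 is its mitochondrial counterpart. Gpt measured 313, 203.4, 197 and 249 CPM in NUL, 214.7, 243 and 237 in LAC, and 411, 399.8 and 379 at ID2. Gpt then measured 332, 282, 385 and 333 CPM at ID4, 191 to 306 (median 223.8) at ID6, 313, 249 and 319 at ID8, and 322, 262, 248 and 264 in REG. Gpt in ID2 lay above all NUL, LAC, ID6, ID8 and REG values and overlapped ID4 alone. Gpt rose by 0.72 (SE 0.14, edgeR adjusted p = 0.00483) against NUL and 0.78 (SE 0.16, edgeR adjusted p = 0.00133) against LAC, in every fit without 1 library, and fell from ID4 to ID6 with -0.51 (SE 0.12, edgeR adjusted p = 0.00999), lost without ID4_211 (edgeR adjusted p = 0.0506). Gpt2 measured 112, 102, 73.9 and 106 CPM in NUL and 161, 179 and 186 in LAC, above every library of the other stages. It rose in LAC with 0.83 (SE 0.21, edgeR adjusted p = 0.0127), a call lost without LAC_240 (edgeR adjusted p = 0.0518), and it came to 119, 144 and 94.6 CPM at ID2 (-0.56 (SE 0.23, edgeR adjusted p = 0.108) against LAC, short of a call). Glud1, glutamate dehydrogenase, ranged over 1057 to 2046 CPM and was called in no comparison, while the fit with the clock score called it lower in LAC against NUL and in ID8 against ID6.

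Of the proline and hydroxyproline genes, all 3 were higher in ID2 against LAC, 2 were lower in ID6 against ID4 and 1 was higher in ID2 against NUL. Of all genes, 8.48%, 4.64% and 2.32% were called in these directions. Aldh4a1 takes the product of proline breakdown to glutamate and acts in hydroxyproline breakdown too. Aldh4a1 measured 544, 439.5, 406 and 500.2 CPM in NUL, 383, 396 and 420.0 in LAC, and 667, 684 and 656 at ID2. Aldh4a1 then measured 559, 604, 599 and 502 CPM at ID4, 365 to 470.3 (median 414) at ID6, 505, 430.5 and 502 at ID8, and 523, 488, 477 and 526 in REG. Aldh4a1 was above every other library at ID2, with ID4 next. Aldh4a1 rose by 0.74 (SE 0.11, edgeR adjusted p = 4.75e-05) against LAC, in every fit run, and by 0.50 (SE 0.10, edgeR adjusted p = 0.00483) against NUL, and fell from ID4 to ID6 with -0.47 (SE 0.08, edgeR adjusted p = 0.00107); these held without any 1 library. Prodh, proline dehydrogenase, ranged over 70.0 to 202 CPM, and was higher in ID2 against LAC (0.58, lost in every fit without 1 library) and lower in ID6 against ID4 (-0.70, in every fit run). Prodh2, hydroxyproline dehydrogenase, ranged over 123 to 236 CPM and was higher in ID2 against LAC (0.50, in every fit without 1 library). Aass carries out the first steps of lysine breakdown. Aass measured 242, 210.1, 163 and 205 CPM in NUL, 197, 217 and 214.4 in LAC, and 304, 349 and 321 at ID2. Aass then measured 225, 201.1, 242 and 229 CPM at ID4, 140.3 to 176 (median 164) at ID6, 225, 209.8 and 280.0 at ID8, and 225, 236, 225 and 205 in REG. All 3 ID2 values of Aass lay above every other library, and 5 comparisons called it. Aass rose by 0.66 (SE 0.11, edgeR adjusted p = 0.000757) against NUL and 0.63 (SE 0.12, edgeR adjusted p = 0.000709) against LAC, fell from ID4 to ID6 with -0.47 (SE 0.09, edgeR adjusted p = 0.0022) and rose to ID8 with 0.56 (SE 0.10, edgeR adjusted p = 0.00281). The first 3 held without any 1 library and the last was lost without ID8_101b (edgeR adjusted p = 0.0555). With the clock score the log2 fold change of Aass in ID2 against NUL was 0.66 and its adjusted p 0.131.

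Of the 9 branched-chain genes, 6 were lower in ID6 against ID4, 5 higher in ID2 against LAC, 4 higher in ID2 against NUL and 3 higher in ID8 against ID6. Of all genes, 4.64%, 8.48%, 2.32% and 2.37% were called in these directions. Bckdha and Bckdhb are the subunits of the decarboxylase of the branched-chain keto acid dehydrogenase, which commits leucine, isoleucine and valine to breakdown, and Dbt is its transacylase. Bckdha measured 272, 254, 253 and 256 CPM in NUL, 245, 231 and 233 in LAC, and 301, 316 and 315 at ID2. Bckdha then measured 311, 302, 298 and 305 CPM at ID4, 215.8 to 269.5 (median 233.8) at ID6, 291, 305 and 334 at ID8, and 290.5, 247, 271 and 297 in REG. Bckdha was below all NUL values in LAC and above all NUL values at ID2, ID4 and ID8. It rose in ID2 against LAC with 0.40 (SE 0.09, edgeR adjusted p = 0.00239) and fell from ID4 to ID6 with -0.36 (SE 0.07, edgeR adjusted p = 0.00139), both in every fit without 1 library, and rose to ID8 with 0.38 (SE 0.07, edgeR adjusted p = 0.00386), lost without ID8_101b (edgeR adjusted p = 0.0533). Reads of Bckdha were divided with other genes in all 27 libraries, as were those of Bcat2 and Nags, and those of Aldh4a1 in 18, Glud1 in 11 and Mccc1 in 5 libraries. Dbt measured 91.5, 80.6, 68.3 and 86.2 CPM in NUL, 85.4, 85.2 and 93.0 in LAC, and 111, 109 and 114 at ID2. Dbt then measured 100.4, 95.6, 115 and 86.8 CPM at ID4, 67.4 to 89.3 (median 82.5) at ID6, 98.5, 70.9 and 83.3 at ID8, and 78.5, 96.8, 94.4 and 85.7 in REG. The ID2 values of Dbt lay above NUL, LAC, ID6, ID8 and REG and within the top of ID4. Its log2 fold change was 0.45 (SE 0.11, edgeR adjusted p = 0.0226) against NUL and 0.34 (SE 0.12, edgeR adjusted p = 0.0489) against LAC, and these calls were lost in 5 of 7 fits without 1 library (largest edgeR adjusted p = 0.0917, without NUL_226) and in all 6 fits without 1 library.

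Hibch acts in valine breakdown, Ivd oxidises the leucine product isovaleryl-CoA, and Mccc1 and Mccc2 are the subunits of the carboxylase that follows. Hibch measured 55.4, 53.1, 43.8 and 49.8 CPM in NUL, 61.4, 58.4 and 53.4 in LAC, and 65.7, 60.2 and 64.3 at ID2. Hibch then measured 63.2, 57.2, 61.3 and 64.2 CPM at ID4, 41.7 to 54.5 (median 48.9) at ID6, 65.3, 59.4 and 58.2 at ID8, and 50.9, 47.8, 57.4 and 53.7 in REG. Hibch was lower at ID6 than in every ID4 and ID8 library. It fell from ID4 to ID6 with -0.34 (SE 0.07, edgeR adjusted p = 0.00533), in every fit without 1 library, and rose to ID8 with 0.33 (SE 0.08, edgeR adjusted p = 0.0226), lost in 4 of 9 fits without 1 library (largest edgeR adjusted p = 0.101, without ID8_14). Ivd measured 215.7, 164, 155 and 185 CPM in NUL, 155, 152 and 149 in LAC, and 258, 262 and 242 at ID2. Ivd then measured 210.5, 208, 252 and 215.4 CPM at ID4, 142 to 197 (median 160.3) at ID6, 202, 174 and 206 at ID8, and 206, 203.4, 183 and 200.7 in REG. Ivd was above all NUL and LAC values at ID2, and the 3 LAC values lay below the NUL range. Ivd rose in ID2 against LAC with 0.74 (SE 0.11, edgeR adjusted p = 8.33e-05), in every fit run, and fell from ID4 to ID6 with -0.43 (SE 0.09, edgeR adjusted p = 0.00373), in every fit without 1 library. In ID2 against NUL it rose by 0.50 (SE 0.11, edgeR adjusted p = 0.00706) and just missed the threshold without ID2_39 (edgeR adjusted p = 0.0506).

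Mccc2 measured 80.3, 67.1, 64.5 and 77.2 CPM in NUL, 76.8, 76.1 and 74.1 in LAC, and 102, 103 and 94.8 at ID2. Mccc2 then measured 88.0, 86.3, 96.1 and 91.7 CPM at ID4, 61.3 to 76.9 (median 69.4) at ID6, 89.5, 75.5 and 89.9 at ID8, and 79.1, 73.6, 82.8 and 81.1 in REG. Mccc2 was higher in every ID2 and ID4 library than in any NUL library. Mccc2 rose in ID2 by 0.46 (SE 0.09, edgeR adjusted p = 0.00256) against NUL and 0.40 (SE 0.09, edgeR adjusted p = 0.00438) against LAC and fell from ID4 to ID6 with -0.40 (SE 0.07, edgeR adjusted p = 0.00112); the 3 calls held without any 1 library. Its partner Mccc1 ranged over 61.3 to 98.2 CPM and was called in ID6 against ID4 alone (-0.27), lost in 8 of 10 fits without 1 library (largest edgeR adjusted p = 0.139, without ID4_211). Bcat2, the branched-chain transaminase, which liver is known to express at a low level, ranged over 14.6 to 24.2 CPM and was called in ID2 against LAC (0.44), lost in 4 of 6 fits without 1 library (largest edgeR adjusted p = 0.0926, without LAC_200). Bckdhb ranged over 105 to 146 CPM and Hibadh, of valine breakdown, over 264 to 362 CPM, and neither was called in any comparison.

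In LAC against NUL the 2 members called higher were Ido2 and Gpt2, a share near the 5.19% of all genes called higher. The 5 called lower were Slc25a15, Amdhd1, Sds, Agxt and Agxt2, where 6% of all genes were called lower, and the median over all 42 was 0.01. With limma on log2(TPM + 1), 2 were higher and 9 lower, in a fit that called 1444 of all 16428 genes. Marker sums of several cell types differed between these groups too. The hepatocyte sum, in which Albumin dominates, was 180962 to 226253 CPM in LAC (7 markers, 2 of them called higher), against 96671 to 122346 in NUL. In ID2 it was 133414 to 146985 CPM, above NUL and above the 90881 to 105853 of ID4 and below LAC, while none of the 7 markers was called in ID2 against NUL (1 at an unadjusted edgeR p under 0.05, median log2 fold change -0.01). In LAC the Kupffer cell and macrophage markers (8 genes) summed to 270.1 to 378.0 CPM against 400.6 to 510.7 in NUL, and the stellate cell and fibroblast markers (7 genes) to 178.4 to 207.6 against 241.5 to 344.4. The Kupffer list had 6 of 8 markers called lower in LAC against NUL, and the stellate list 3 of 7. The sums of bile duct, lymphocyte and sinusoidal endothelium markers in LAC also lay below those of NUL, with 2 of 5, 3 of 6 and 0 of 6 markers called (5 of the 6 endothelial ones at an unadjusted edgeR p under 0.05). The erythroid sum was 767.6 to 1015.6 CPM in LAC, above NUL, with 0 of 5 markers called and 0 at an unadjusted edgeR p under 0.05. Their part in the results in LAC and ID2 was not tested. The Kupffer cell markers summed to 670.4 to 733.6 CPM in ID4 and 540.2 to 843.9 in ID6, against 371.8 to 457.0 in ID2. Erythroid markers (5 genes) summed to 53.1 to 264.4 CPM in ID6 and 19.9 to 35.0 in ID8, against 334.7 to 711.7 in NUL. Their part in the results at ID6 and ID8 was not tested.

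Other genes of the same pathways were counted from fixed lists. The shares of all genes to read these counts against are 5.19% higher and 6% lower in LAC against NUL, 2.32% higher in ID2 against NUL, 8.48% higher and 7.64% lower in ID2 against LAC, and 4.64% lower in ID6 against ID4. Among 9 other tested genes of the urea cycle, ammonia and ornithine, 2 were lower in LAC against NUL, 3 higher in ID2 against LAC and 5 lower in ID6 against ID4. Oat, ornithine aminotransferase, which pericentral cells express, measured -1.09 (SE 0.16, edgeR adjusted p = 8.23e-05) on the log2 scale in LAC against NUL and 1.37 (SE 0.17, edgeR adjusted p = 1.05e-05) in ID2 against LAC. Agmat, agmatinase, rose in ID2 against LAC with 0.96 (SE 0.12, edgeR adjusted p = 9.86e-06). Of 7 other tryptophan genes, 4 were higher and 1 lower in LAC. Acmsd, which diverts the pathway away from NAD, rose in LAC by 1.14 (SE 0.24, edgeR adjusted p = 0.00286), and Afmid rose in ID2 against NUL with 0.73 (SE 0.14, edgeR adjusted p = 0.00412). In ID2 against LAC 3 of these tryptophan genes were higher and 2 lower, with a list median of -0.29. Aadat, an aminotransferase of lysine and kynurenine breakdown, rose with 0.83 (SE 0.10, edgeR adjusted p = 7.79e-06), while the kynurenine aminotransferases Kyat1 and Kyat3 fell with -0.59 and -0.42 on the log2 scale.

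Of 5 other phenylalanine and tyrosine genes, 2 were higher in ID2 against LAC. Qdpr, which recycles tetrahydrobiopterin, a cofactor of aromatic amino acid hydroxylases, fell from ID2 to ID4 (-0.79) and rose from ID4 to ID6 (0.59). Of 14 other serine, glycine and threonine genes, 3 were higher and 2 lower in ID2 against LAC, where 16.1% of all genes were called. Gldc and Amt of the glycine cleavage system were higher (0.52 and 0.56), and Psph, the last enzyme of serine synthesis, was lower (-0.67). Of 12 other branched-chain genes, 6 were higher in ID2 against LAC and 7 lower in ID6 against ID4. Ppm1k, the phosphatase that activates the branched-chain keto acid dehydrogenase, rose in ID2 against LAC with 1.57 (SE 0.38, edgeR adjusted p = 0.00884) and fell from ID4 to ID6 with -1.07 (SE 0.29, edgeR adjusted p = 0.0256). Echs1 rose in ID2 against LAC (0.47). Of 8 other lysine, proline and hydroxyproline genes, 4 were higher in ID2 against NUL and 3 in ID2 against LAC, among them Dhtkd1 (0.50).

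Of 15 amino acid transporters, 5 were higher and 1 lower in ID2 against LAC, and 4 were higher in ID2 against NUL. Slc7a2, a carrier of arginine and other cationic amino acids, rose by 1.68 (SE 0.19, edgeR adjusted p = 3.06e-06) against LAC and by 1.21 (SE 0.17, edgeR adjusted p = 0.000252) against NUL, and Slc38a4, a carrier of neutral amino acids, by 0.97 (SE 0.12, edgeR adjusted p = 7.79e-06) against LAC. Of 15 regulators of amino acid catabolism, 3 were lower in LAC against NUL and 7 higher in ID2 against LAC. Ppargc1a, a coactivator that fasting induces, rose in ID2 by 1.12 (SE 0.26, edgeR adjusted p = 0.00451) against LAC and by 1.03 (SE 0.24, edgeR adjusted p = 0.0142) against NUL. Of 11 genes of amino acid shortage and the ATF4 response, 2 were higher and 3 lower in ID2 against LAC, where 8.48% of all genes were higher and 7.64% lower. Ddit4 rose in LAC by 1.17 (SE 0.18, edgeR adjusted p = 0.000112) and fell in ID2 against LAC with -1.04 (SE 0.20, edgeR adjusted p = 0.000765), while Trib3 rose in ID2 against LAC with 1.08 (SE 0.23, edgeR adjusted p = 0.00178).

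Genes of the zones of the liver lobule were counted in the same way. Of 12 pericentral genes, 6 were lower in LAC against NUL and none higher, among them Lgr5 (-1.87 (SE 0.40, edgeR adjusted p = 0.00346)) and Cyp2e1 (-1.49 (SE 0.20, edgeR adjusted p = 2.57e-05)). Of 15 periportal genes, among them the members Cps1, Gls2, Sds and Hal, 5 were higher and 4 lower in LAC against NUL. Pck1, the gluconeogenic enzyme that makes phosphoenolpyruvate, fell in LAC against NUL with -1.36 (SE 0.42, edgeR adjusted p = 0.0427) and rose in ID2 against LAC with 2.25 (SE 0.46, edgeR adjusted p = 0.00242). In ID2 against NUL 5 periportal genes were higher, 4 of them members, and 1 pericentral gene was lower, where 0.919% of all genes were called lower. The counts of the zones were not tested against each other.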

How the data were processed

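Liver RNA of 27 mice was sequenced as bulk libraries, in 2 runs for 16 of them, with Trizol extraction and the NEBNext Ultra kit, per the labels. The authors' tables hold 1 row per gene, with an expected count (an estimate that need not be whole) and TPM from RSEM 1.3.1 after STAR 2.6.1a, on mm10 or GRCm38, per the submitters' processing notes and the file headers. TPM is the deposited length-scaled value. The use of strand and the annotation are not given in the sources used here. Symbols and gene positions come from GENCODE release M21 by identifier.

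Expected counts were rounded and fitted with edgeR 4.0.16 in R 4.3.3: filterByExpr by stage (16428 genes), TMM, 1 robust quasi-likelihood fit of 7 groups, 11 contrasts and a joint test, two-sided, with Benjamini-Hochberg adjustment over all genes. The biological coefficient of variation was 0.190. The procedure was also run on simulated data, and the outcome is not given here. Alternatives used limma 3.58.1, DESeq2 1.42.0, other scalings, added terms and libraries left out. Nothing in the labels says more of how animals were kept. The p-values set a difference between stages against the spread between animals within stages, estimated over the 7 groups. Anything else that the animals of a stage share cannot be told apart from the stage. The members, lists and tests were chosen with earlier results of these data known. Per-library values were given for members with the largest call of a branch, first steps of a branch, or at least 3 calls, and other pathway genes were named for the 3 largest calls of a list. Kyat1 and Kyat3 were named outside this rule. No 2 libraries of a group agreed within sampling noise. A comparison of protein sequences was not done. Values of 2 genes are not reported here by name, though counts over lists include them.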

Additional observations from a re-analysis of the deposited data

Results flagged for a closer look

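Groups of 4 to 6 animals were screened, 168 pairs of a gene and a stage, for an animal far from the others of its stage by Dixon's criterion. Chance marks about 1 in 20 such groups, and 8 pairs were marked here, about as many as that. Nags in NUL_226 was low, at 69.2 CPM against 93.9 to 96.2 in the other NUL animals. Tat in REG_203 was high, at 2012 CPM against 985 to 1148 in the other REG animals. Haao in ID6_232 was low, at 324.7 CPM against 436 to 501, and Hal in ID6_209 was low, at 232.6 CPM against 299 to 327. NUL_220 was high for 3 genes: Uroc1 at 494.1 CPM against 365 to 386, Bckdha at 272.1 CPM against 253 to 256, and Hibadh at 348.9 CPM against 264 to 274. Ivd in ID4_211 was high, at 252.3 CPM against 208 to 215.4. Of these, the ID4 call of Ivd against ID6 held without ID4_211 (edgeR adjusted p = 0.0257).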

How the results depend on the processing

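No paired analysis was possible because no animal number occurs in more than 1 stage. No call of a member changed direction in any fit that kept it. Of 103 calls of a member in a comparison, 45 held in every fit without 1 library and 23 in every fit run; 44 held with the clock score and 60 with the number range as a term. Without 1 library the counts of called members ran from 29 to 36 for the joint test, 4 to 8 for LAC against NUL, 11 to 25 for ID2 against NUL, 0 to 13 for ID4 against NUL, 0 to 3 for ID6 and for ID8 against NUL, 19 to 21 for ID2 against LAC, 2 to 5 for ID4 against ID2, 13 to 18 for ID6 against ID4 and 0 to 18 for ID8 against ID6. With log2(TPM + 1) and with log2(TPM + 0.1) alike, LAC against NUL called 11, ID4 against NUL 1, ID6 against NUL 1, ID8 against NUL 0 and ID8 against ID6 8. At an adjusted p under 0.01, LAC against NUL called 4, ID2 against NUL 14, ID4, ID6 and ID8 against NUL 0, and ID8 against ID6 6. With the number range, ID2 against NUL called 11, ID4 against NUL 2, ID8 against NUL 0 and ID8 against ID6 0, where the calls over all genes went to 108, 359, 7 and 6 and the members' medians to 0.48, 0.25, 0.26 and 0.34 (0.44, 0.22, 0.23 and 0.31 without it). With the clock score, ID2 against NUL called 0, ID4 against NUL 2, ID8 against NUL 0, REG against NUL 1, ID2 against LAC 15, ID4 against ID2 1 and ID8 against ID6 7. Over all genes that fit called 11, 529, 59, 35, 1294, 73 and 378 in these comparisons. Without the score the calls over all genes were 532, 698, 82, 14, 2648, 244 and 677. DESeq2 called 13 in ID4 against NUL, 4 in ID6 against NUL, 5 in ID8 against NUL, 1 in REG against NUL and 9 in ID4 against ID2. With only the compared groups in the fit, ID4 against NUL called 3, ID6 and ID8 against NUL 0 and ID8 against ID6 7. Calls over all genes at an adjusted p under 0.01, with DESeq2 and with only the compared groups are not given here. The call in ID8 against NUL was lost (0 left) with RLE scaling, with an effective length offset, with sequencing runs as a term and without mitochondrial and the 20 most abundant genes in the scaling. The other 2 alternatives were chosen after seeing the data. Without the 3 libraries with most pancreas RNA, ID4 against ID2 called 1 and ID8 against ID6 9. With only numbers of 200 and over, where ID2 has 1 library assumed to vary like the other groups, ID2 against NUL called 1, ID4 against NUL 0, ID2 against LAC 11, ID4 against ID2 0 and ID6 against ID4 10; this removes the ID8 stage. The causes of these shifts were not tested. With groups of 3 to 6 animals, small changes of a member may have been missed.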
